A study of Danio rerio with 50 samples.

Results

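The comparison set the livers of male zebrafish exposed to 0.5 µg/L estradiol for 24 h (6 arrays) against the livers of untreated males sampled at 24 h (8 arrays), 14 of the 50 arrays of the series. The arrays were taken by their titles. The series also holds males exposed to 5 and 50 µg/L and males sampled at 96 h; of these, 5 µg/L at 24 h (6 arrays) and 0.5 µg/L at 96 h (6 arrays, with 7 untreated arrays of that time) are used below. The labels name no strain or age and give no vehicle for the untreated fish. Each array carried 1 fish sample in the dye Cy5 against a pool of equal amounts of male and female wild-type liver RNA in Cy3, so a level below is a log2 ratio to that pool and a difference is 0.5 µg/L estradiol minus control on the log2 scale. The labels call the samples biological replicates but are silent on shared tanks and pooled livers, so p-values reflect only how much these samples vary.

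Estradiol is the estrogen that makes the liver of egg-laying fish produce vitellogenin, the precursor of egg yolk. The hormone binds estrogen receptors in the hepatocyte, which switch on the vitellogenin genes and the gene of the receptor esr1 itself, and the liver secretes the protein into the blood. Males carry the same genes and normally hold them nearly silent, so vitellogenin in male fish is a widely used sign of exposure to estrogens. Vitellogenin is made at the rough endoplasmic reticulum, where chaperones fold secreted proteins and coated vesicles carry them onwards.

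Treated replicates 2 and 5 stood apart before any comparison. Across probes, which are not independent replicates, treated replicate 2 correlated with the mean of the other treated arrays at r = 0.592, against 0.855 to 0.938 for the other 5 treated arrays and 0.896 to 0.951 for the controls with the rest of their own group. On treated replicate 2, 233 of 9164 named genes stood more than 2 log2 units above the median of the other 5 treated arrays and 14 stood as far below. On treated replicate 5 the same counts were 67 and 0, and on the other 4 treated arrays they were 2 to 16 above and 3 to 11 below. Egg coat genes, described after the main results, were high on both arrays, and ovary and oocyte markers as a list only on treated replicate 2. The Cy3 pool of treated replicate 2 correlated in brightness with that of the other treated arrays of the series at a median of 0.929. Treated replicate 4 was the dimmest, with 64.4% of Cy5 spots above background, against 86.1% to 91.9% on the other 5 treated arrays. Treated replicates 4 and 6 correlated slightly better with the mean of the controls (0.895 and 0.907) than with that of their own group (0.878 and 0.9). Spot brightness on control arrays was not used here. Hepatocyte markers were above the pool on every array: the median log2 ratio of 19 such genes was 1.48 to 2.68 on treated arrays and 2.33 to 3.06 on control arrays. Skeletal muscle and egg coat genes lay far below the pool on control arrays, with medians of -3.73 to -2.72 and -3.41 to -2.13. The pool is described as liver RNA, and its make-up was not tested.

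After 24 h at the lowest dose few probes passed the threshold, led by those of the yolk precursor gene vtg3. Of 22046 tested probes, 111 changed (0.503%): 46 rose (0.209%) and 65 fell (0.295%) at an adjusted p under 0.05 in limma. Before adjustment 2345 of the probes had a p under 0.05 in the same fit, so smaller changes may lie below the threshold. Among 9164 named genes, each counted by 1 probe, 41 changed (0.447%), of which 9 rose (0.0982%) and 32 fell (0.349%), with a median difference of 0.00 over all of them. Of the 46 probes that rose, 15 belong to vtg3, 22 have no gene name here and 9 belong to other named genes. The treated and control values did not overlap for 34 of the 46 probes that rose, for 17 of the 65 that fell and for 0.59% of all tested probes. Counted by probes, the rises and the falls differed in how much they rested on single arrays. Without treated replicate 2, 70 probes changed (0.318%): 40 rose (0.181%) and 30 fell (0.136%), and 36 of these rises and 24 of these falls were also called with all arrays. The 36 include all 15 vtg3 probes and 16 unnamed probes described below, so they are not as many separate genes. Counted by named genes, 4 of the 9 rises and 8 of the 32 falls were also called without treated replicate 2. Leaving out control replicate 1 gave 25 falls, control replicate 4 gave 131, control replicate 5 gave 113, control replicate 6 gave 43 and treated replicate 5 gave 28, while rises stayed between 38 and 59 in all 14 fits that left out 1 array. With the spread estimated from these 14 arrays alone, 33 probes rose (0.15%) and 11 fell (0.0499%).

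The vtg3 gene encodes a phosvitinless vitellogenin. Its representative probe had log2 ratios of 0.05, 1.33, 0.74, 0.15, 2.26 and 1.72 on treated replicates 1 to 6, against a lowest value of -3.87, a median of -3.41 and a highest of -2.65 on control arrays. Every treated array was above every control array, and treated replicate 2 was neither the highest nor the lowest of its group. The difference was 4.39 ± 0.29 (SE, n = 6 treated and 8 control arrays), with an adjusted p of 5.49e-17. Leaving out treated replicate 2 gave 4.34, a 20.2-fold rise, and without replicates 2 and 5 it still passed the threshold (adjusted p = 4.29e-14). All 15 probes of vtg3 rose, by 4.00 to 4.50. Over these probes single ratios ran from -0.03 to 2.47 on treated arrays and from -4.02 to -2.21 on control arrays. The spot was above background on all 6 treated arrays and saturated on none. Among treated fish the vtg3 ratio had an SD of 0.88, against 0.41 among controls.

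**Figure D1:**
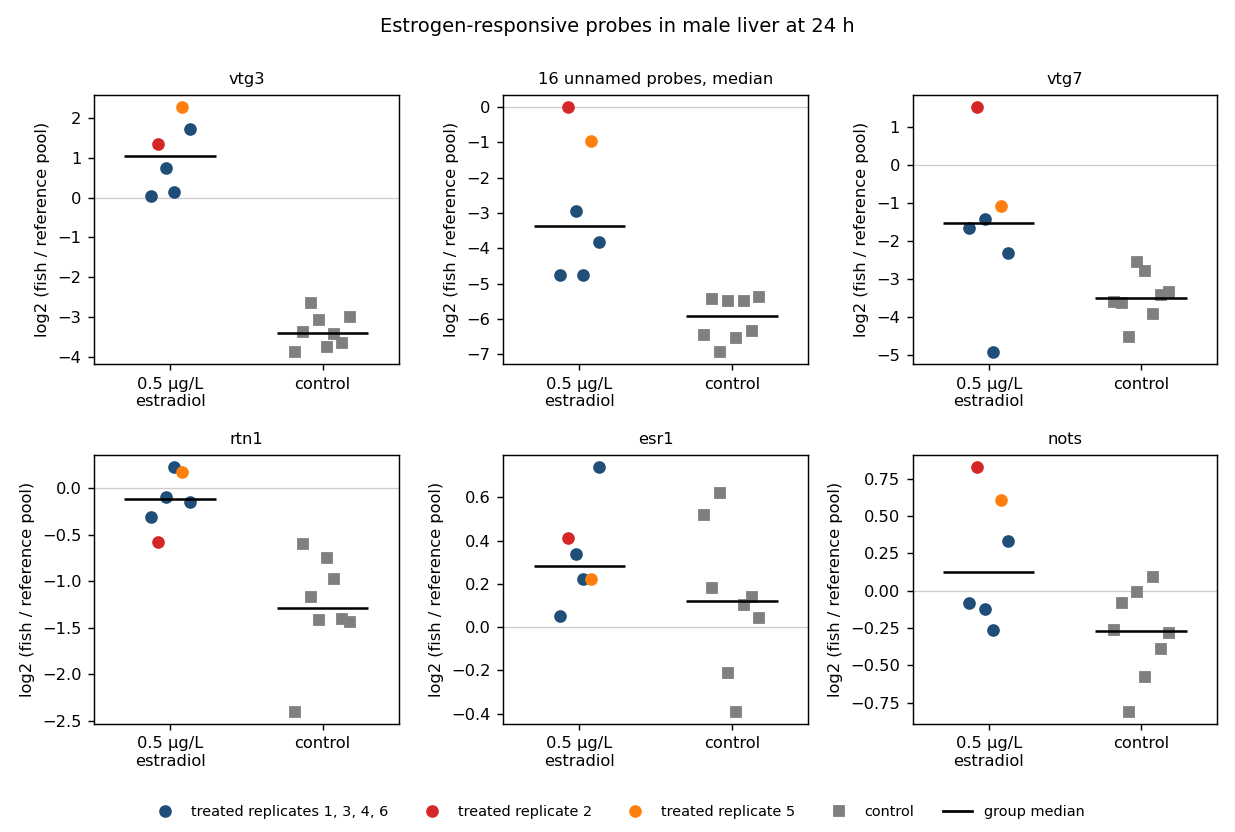
Log2 ratio of the fish sample over the liver pool on each 24 h array for vtg3, the median of 16 unnamed probes, vtg7, rtn1, esr1 and nots; each point is 1 array, treated arrays on the left and controls on the right of each panel, and the line is the group median. For vtg3 and rtn1 all treated arrays lie above all controls, while vtg7 on treated arrays runs from -4.91 to 1.52, across the control range of -4.52 to -2.54.

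A set of 16 probes with no gene name here followed vtg3 in size, with rises of 2.68 to 3.93. Their median ratio was -0.01 on treated replicate 2 and -0.96 on treated replicate 5, and -4.75, -2.94, -4.76 and -3.81 on treated replicates 1, 3, 4 and 6, against -6.94 to -5.37 on the control arrays. Treated replicates 2 and 5 were thus the highest, as they were for the egg coat genes described below. On treated replicates 1, 3, 4 and 6 the egg coat medians were -2.62, -3.14, -2.47 and -2.76, within the control range of -3.41 to -2.13. For 14 of the 16 probes no treated array overlapped the controls. All 16 passed the threshold without treated replicate 2, with rises of 2.17 to 3.25. Without replicates 2 and 5 the rises were 1.63 to 2.62 and 8 of the 16 passed. The probe with the largest rise, 5451653, rose by 3.93 ± 0.55 with all arrays and by 3.25 without replicate 2. The same 16 probes rose by 5.90 to 7.79 with 5 µg/L at 24 h and by 7.02 to 9.08 with 0.5 µg/L at 96 h. Their spots were saturated on 5 or 6 of the 6 treated arrays at 5 µg/L and on all 6 at 96 h, so both ranges are lower bounds. At 0.5 µg/L and 24 h they were saturated on at most 1 treated array, so the rises with all arrays can also be too low.

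The other vitellogenins with a name here and the estrogen receptors did not pass the threshold at this dose and time. The 6 named vitellogenins are vtg2 to vtg7 and do not include vtg1. As 10502 tested probes have no name, the response of vitellogenins without a named probe is not known here. The vtg7 gene, another yolk precursor, measured -1.65, 1.52, -1.41, -4.91, -1.07 and -2.31 on treated replicates 1 to 6, against -4.52, -3.50 and -2.54 (lowest, median, highest) on controls. Treated replicate 4 lay below every control and the other 5 treated arrays lay above every control. Its difference of 1.82 ± 0.51 had an adjusted p of 0.0885, and without treated replicate 2 it was 1.19 (adjusted p = 0.367). Against the controls of both times pooled the adjusted p was 0.0261. Differences of vtg2 (-0.30 ± 0.15), vtg4 (0.14 ± 0.19), vtg5 (-0.03 ± 0.18) and vtg6 (-0.07 ± 0.16, with control replicate 3 missing) were small, and their treated and control ranges overlapped. The ratios of these genes in control males lay near 0 (medians of 0.57, -0.03, 0.22 and -0.09), unlike those of vtg3 and vtg7. Of the 6 vitellogenins, only 2 rose with 5 µg/L at 24 h and only 2 with 0.5 µg/L at 96 h. The lack of a call for vtg2, vtg4, vtg5 and vtg6 is therefore not particular to this dose and time. Whether their probes can show an induction was not tested.

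The estrogen receptor gene esr1, whose product mediates the induction of vitellogenin, measured 0.05 to 0.74 on treated arrays and -0.39 to 0.62 on control arrays, with a difference of 0.20 ± 0.32 (adjusted p = 0.873). Its spot was above background on 1 of the 6 treated arrays. The genes of the beta-type receptors, esr2a and esr2b, measured -0.37 ± 0.21 and -0.48 ± 0.26. A second esr2b probe measured -0.90 ± 0.24 (adjusted p = 0.0742, and 0.00763 against pooled controls). Several genes that respond at the higher dose or the later time were named with those results known. The nothepsin gene nots, an aspartic protease made in the liver of female zebrafish, measured 0.51 ± 0.26 higher, and pax9, a paired box transcription factor, 0.87 ± 0.38 higher. The inflammasome adaptor gene pycard measured -0.10 ± 0.29. Of these genes rtn1, a reticulon of the endoplasmic reticulum membrane, came closest: its ratios were -0.31, -0.58, -0.09, 0.23, 0.18 and -0.15 on treated arrays and -2.40 to -0.60 on controls, without overlap. The difference of 1.15 ± 0.32 had an adjusted p of 0.0842, which was 0.0478 with the spread of the 14 arrays alone and 0.00644 against pooled controls. Among 10 estrogen receptors and known targets none passed the threshold in either direction, with a median difference of -0.04.

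Outside the vitellogenins, 8 named genes rose with all arrays. Without treated replicate 2, 7 named genes rose in all (0.0764%), among them vtg3, btg2, elf3 and egln1b. The antiproliferative gene btg2 measured -0.60, 0.49, 0.94, 0.04, -1.04 and 0.37 on treated replicates 1 to 6, against -2.25, -1.35 and -0.46 (lowest, median, highest) on controls. It rose by 1.36 ± 0.29 (adjusted p = 0.00834), and treated replicates 1 and 5 lay within the control range. The call ended without treated replicate 3 and with the spread of the 14 arrays alone (adjusted p = 0.103). The epithelial ETS factor gene elf3 measured -0.77 to -0.21 on 5 treated arrays and 0.96 on treated replicate 5, against -2.50 to -0.86 on controls, with no overlap. Its rise was 1.15 ± 0.26 (adjusted p = 0.0168), no longer past the threshold without control replicate 1, without treated replicate 5 or with the spread of the 14 arrays alone (adjusted p = 0.10). The gene egln1b encodes a prolyl hydroxylase that marks hypoxia-inducible factor for degradation. It measured 0.57 to 1.4 on treated arrays and -0.81 to 0.79 on controls, and rose by 0.89 ± 0.19 (adjusted p = 0.0072). Leaving out any single array kept this call, which ended with the spread of the 14 arrays alone (adjusted p = 0.136).

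The other 5 rises ended without treated replicate 2. The yippee-like gene ypel3 measured -0.35 to 0.51 on treated arrays and -1.21 to -0.36 on controls, without overlap, and rose by 0.92 ± 0.21 (adjusted p = 0.0168, 0.0643 without replicate 2 and 0.209 against pooled controls). The gene of the nuclear redox protein selenoprotein H, selenoh, had 0.75 on treated replicate 2 and -1.02 to -0.44 on the other 5, against -1.86 to -0.96 on controls, and rose by 0.95 ± 0.23. The thymidine kinase gene tk1, which salvages thymidine for DNA synthesis, had -0.70 on treated replicate 2 and -2.09 to -1.37 on the others, against -2.78 to -1.78 on controls, and rose by 0.76 ± 0.19. A second tk1 probe did not pass (0.16 ± 0.17, adjusted p = 0.798). The glutathione transferase gene gsta.1 rose by 0.85 ± 0.21 and the coiled-coil gene ccdc71 by 0.67 ± 0.14. For selenoh, tk1 and ccdc71 treated replicate 2 was the highest array of all 14.

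A further 3 named genes passed the threshold with treated replicate 2 left out and not with all arrays. The stress-induced chromatin protein gene nupr1b measured 1.38 to 1.79 on the 5 arrays and 0.82 on treated replicate 2, against 0.18 to 1.04 on controls, and its difference was 1.07 (adjusted p = 0.045) without that array and 0.94 (adjusted p = 0.065) with it. The mRNA decay factor gene zfp36l1b measured 1.05 to 1.88 on the 5 arrays, 0.06 on treated replicate 2 and -0.16 to 0.94 on controls, with a difference of 0.87 (adjusted p = 0.017) without replicate 2. The gene sycp3, for a protein of the meiotic synaptonemal complex, measured 1.91 to 2.58 on the 5 arrays, 1.22 on replicate 2 and 0.55 to 1.67 on controls, with a difference of 0.92 (adjusted p = 0.0153); of its 4 probes 1 passed. For these 3 genes treated replicate 2 was the lowest treated array and lay within the control range.

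**Figure D2:**
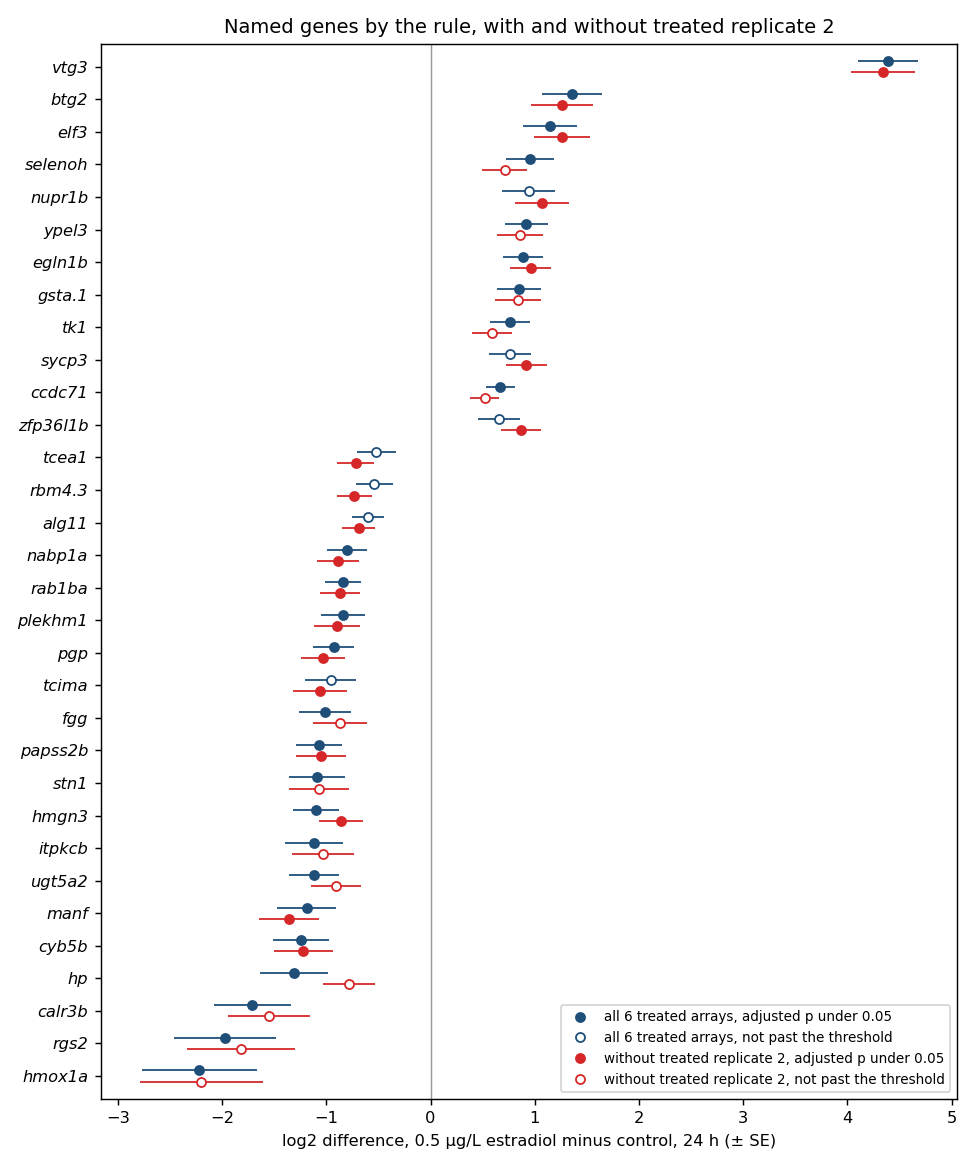
Difference of log2 ratios, 0.5 µg/L estradiol minus control at 24 h, for the named genes with the largest rises and falls; blue points use all 6 treated arrays, red points leave out treated replicate 2, bars are the SE of the fit, and open points did not pass an adjusted p of 0.05. At 4.39, vtg3 stands far above the next gene, btg2 at 1.36, and several falls keep their size while losing the threshold without replicate 2.

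Without treated replicate 2, 19 named genes changed (0.207%) and 12 of them fell (0.131%). Of these, 8 also fell with all arrays: rab1ba, papss2b, cyb5b, hmgn3, manf, pgp, nabp1a and plekhm1. The gene rab1ba encodes a small GTPase of transport between the endoplasmic reticulum and the Golgi. It measured -1.04, -0.79, -0.97, -0.79, -0.90 and -1.02 on treated replicates 1 to 6, against -0.79, -0.18 and 0.67 (lowest, median, highest) on controls. Every treated array lay at or below the lowest control, and rab1ba fell by 0.84 ± 0.17 on the log2 scale (adjusted p = 0.00702). The gene papss2b, for a synthase of the sulfate donor of sulfation reactions, measured -0.80 to -0.31 on treated arrays and 0.04 to 2.05 on controls, where control replicate 1 was the highest, and fell by 1.07 ± 0.22 on the log2 scale (adjusted p = 0.00702). The outer mitochondrial cytochrome b5 gene cyb5b measured -0.11 to 1.08 on treated arrays and 0.80 to 2.60 on controls, and fell by 1.24 ± 0.27 on the log2 scale (adjusted p = 0.00941). The nucleosome-binding gene hmgn3 had -1.86 on treated replicate 2 and -0.90 to -0.01 on the others, against -0.29 to 0.81 on controls, and fell by 1.1 ± 0.22 on the log2 scale (adjusted p = 0.00399, and 0.0452 without replicate 2). The calls of rab1ba, papss2b and hmgn3 held whichever single array was left out, and that of cyb5b ended without treated replicate 5. With the spread of the 14 arrays alone, cyb5b passed (adjusted p = 0.0408) and the other 3 did not. Against the controls of both times pooled, none of the 8 passed: their differences were -0.87 (cyb5b) to -0.49 (rab1ba and pgp), with adjusted p-values of 0.0904 to 0.379.

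The phosphoglycolate phosphatase gene pgp, with no value on treated replicate 6, fell by 0.93 ± 0.20, the single-stranded DNA binding gene nabp1a by 0.80 ± 0.19, with both of its probes past the threshold, and plekhm1, an adaptor of lysosome fusion, by 0.84 ± 0.21 on the log2 scale. These calls were kept in 11, 9 and 5 of the 14 fits that left out 1 array. The second probe of plekhm1 did not fall (0.13 ± 0.24, adjusted p = 0.896). Without treated replicate 2, falls of tcima (-1.06), the RNA-binding gene rbm4.3 (-0.73), the transcription elongation factor gene tcea1 (-0.72) and the N-glycan mannosyltransferase gene alg11 (-0.69) also passed. The second tcima probe measured 0.01 in that fit. On treated replicate 2 rbm4.3 had 0.15 and tcea1 had 0.55, above the other 5 treated arrays, at -1.16 to -0.81 and -0.91 to -0.44. Of the unnamed probes that fell, 5461877 had the largest difference, -1.93 ± 0.27, and kept it without replicate 2 (-1.87).

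The falls of hmox1a and rgs2, the largest among named genes, came with a wide spread of the controls. The heme oxygenase gene hmox1a, which breaks down heme, measured 0.49, 0.18, 0.44, -0.26, 0.16 and 0.66 on treated replicates 1 to 6. On control replicates 1 to 8 it measured 5.71, 4.55, 3.99, 0.00, 1.60, 1.17, 1.03 and 1.91, so control replicates 1 to 3 were far above the other controls and control replicate 4 lay below 5 of the 6 treated arrays. The difference was -2.22 ± 0.55 (adjusted p = 0.0446), and 5 of the 14 such fits kept the call, which ended without control replicate 1, 2, 3 or 8 and without any of treated replicates 1 to 5. The gene rgs2, a regulator of G protein signalling, measured -1.97 to -0.22 on treated arrays and -1.44, 0.14 and 3.92 (lowest, median, highest) on controls, with 3.92 and 3.14 on control replicates 1 and 2. It fell by 1.97 ± 0.49 on the log2 scale (adjusted p = 0.0443), a call kept in 6 of those fits and ended without control replicate 1, 2 or 3 or any of treated replicates 1 to 5. A second rgs2 probe did not pass (-1.67 ± 0.44, adjusted p = 0.0615). The inositol trisphosphate kinase gene itpkcb (-1.12 ± 0.28) and the telomere replication gene stn1 (-1.09 ± 0.27) kept their calls in 3 and 5 of these fits.

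Genes of protein folding and secretion in the endoplasmic reticulum measured slightly lower in treated fish. Of 96 such genes 5 fell and none rose (background 0.349% and 0.0982% of named genes), and 90 of the 96 measured below their controls, against 4649 of 9164 named genes. The median difference of the list was -0.40, against 0.00 over all named genes. On each array, the median ratio of the 96 genes was 0.22, 0.14, 0.28, 0.08, 0.11 and 0.22 on treated replicates 1 to 6, and 1.02, 0.49, 0.75, 0.26, 0.43, 0.66, 0.34 and 0.51 on control replicates 1 to 8. The treated arrays lay close together and the controls spread widely, with control replicate 1 the highest and control replicate 4 within the treated range. The median was -0.38 without treated replicate 2, and 1 gene fell. Without control replicate 1 the median was -0.34 and 1 gene fell, and over the 14 fits that left out 1 array 1 to 9 genes fell (9 without control replicate 4, 8 without control replicate 5 and 1 without control replicate 3 or treated replicates 2, 3 or 5). Untreated males at 96 h had array medians of -0.02 to 0.51 for these genes, so against pooled controls the list median was -0.21 and no gene fell.

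Within this list the lectin chaperone gene calr3b changed most. It measured 0.58, -0.62, 0.65, -0.26, 0.03 and 0.54 on treated replicates 1 to 6, against 1.00, 1.81 and 2.93 on controls (lowest, median, highest), without overlap, and fell by 1.71 ± 0.37 on the log2 scale (adjusted p = 0.0106). Without treated replicate 2 the difference was -1.55 (adjusted p = 0.0586), and of its 3 probes 2 fell and 1 measured 0.06. The gene manf encodes a secreted protein induced when unfolded proteins accumulate in the endoplasmic reticulum. It measured -0.73 to 0.18 on 5 treated arrays and 0.86 on treated replicate 2, against 0.61 to 2.14 on controls, and fell by 1.19 ± 0.28 on the log2 scale (adjusted p = 0.0305, and 0.0146 without replicate 2), and the call ended without control replicate 1, 3 or 6 or treated replicate 3, 4 or 5. Falls of selenos (-0.95 ± 0.24), for a selenoprotein of the export of misfolded proteins, of copb2 (-0.60 ± 0.14), for a coat protein of Golgi vesicles, and of tmed2 (-0.85), for a cargo receptor, ended without treated replicate 2; selenos and tmed2 were named after their values were seen. The main luminal chaperone gene hspa5 measured -1.60 to 0.17 on treated arrays and -0.44 to 2.22 on controls, a difference of -1.43 ± 0.41 that did not pass (adjusted p = 0.102). For its partner hyou1, singled out after its values were seen, 3 of 5 probes fell and all 5 measured between -1.59 and -1.19, while the representative probe did not pass (-1.26 ± 0.35, adjusted p = 0.0945).

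**Figure D3:**
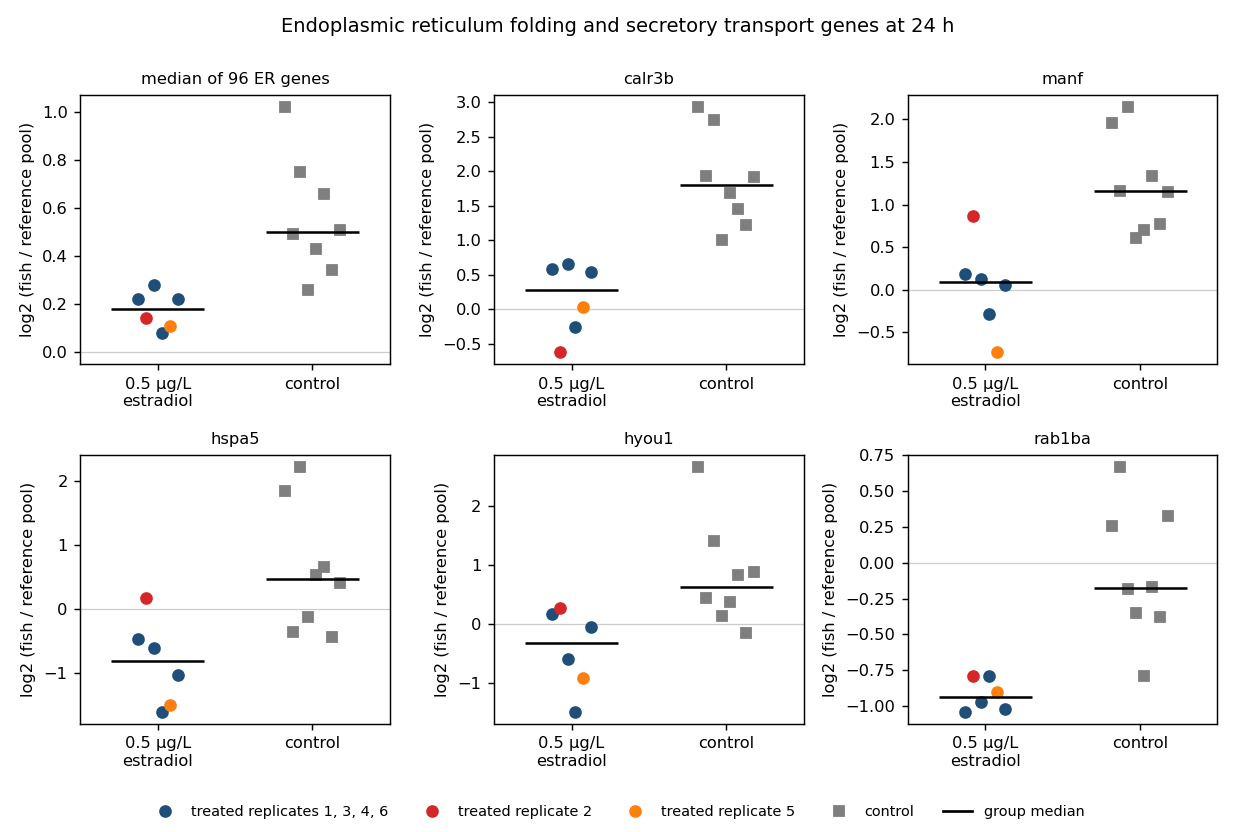
Log2 ratio over the liver pool on each 24 h array for the median of 96 genes of protein folding and secretion and for calr3b, manf, hspa5, hyou1 and rab1ba; each point is 1 array, treated arrays on the left of each panel, and the line is the group median. Treated arrays cluster between 0.08 and 0.28 for the list, whereas the controls run from 0.26 to 1.02 with control replicate 1 on top.

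Genes of complement and coagulation, genes of the acute phase and plasma transport, and hepatocyte markers measured lower, and treated replicate 2 was the lowest array for them. Apolipoprotein and lipid transfer genes, given further below, did not share this, with 9 of 18 lower and a median of -0.07. Of 40 complement and coagulation genes 1 fell and none rose, beside 0.349% and 0.0982% of all named genes, with a median difference of -0.34 that was -0.25 without treated replicate 2. Their array median was 1.74 on treated replicate 2 and 2.58 to 2.89 on the other 5, against 2.76 to 3.12 on controls. Of 19 hepatocyte markers 2 fell, with a median of -0.55, and 2 of 17 genes of the acute phase and of plasma transport fell, with a median of -0.46; none of either list fell without treated replicate 2, when the medians were -0.43 and -0.35. Under quantile normalization no gene of the 3 lists fell, and the medians were -0.01 for complement and coagulation and -0.29 for each of the other lists. In bulk liver, fewer cells of a type and less RNA per cell cannot be told apart.

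The members behind these counts were hp, fgg and tdo2a. The haptoglobin gene hp, whose product binds free hemoglobin, measured -0.35 on treated replicate 2, 1.75 on treated replicate 5 and 2.96 to 3.25 on the other 4, against 3.12, 3.61 and 4.48 (lowest, median, highest) on controls. It fell by 1.31 ± 0.33 on the log2 scale (adjusted p = 0.0454), and by 0.78 without replicate 2 (adjusted p = 0.228). The fibrinogen gamma chain gene fgg, of the clotting protein, measured 2.03 to 3.17 on treated arrays and 2.98 to 5.06 on controls, with its spot saturated on 4 of the 6 treated arrays, and fell by 1.01 ± 0.25 on the log2 scale (adjusted p = 0.0446, and 0.156 without replicate 2). The fgg call survived 4 of the 14 single-array omissions and 4 of 12 other alternatives. The tryptophan dioxygenase gene tdo2a, of tryptophan breakdown, measured 1.34 to 2.68 on treated arrays and 2.47 to 3.28 on controls, and fell by 0.81 ± 0.17 on the log2 scale (adjusted p = 0.00962, and 0.0782 without replicate 2). The fibrinogen genes fga (-0.85, adjusted p = 0.0824) and fgb (-0.90, adjusted p = 0.169), whose spots were saturated on all 6 treated arrays, and serpina7 (-1.25, adjusted p = 0.0608), of thyroid hormone transport in mammals, did not pass.

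Against the same shares of all named genes (0.0982% rose and 0.349% fell), 1 of 62 genes of xenobiotic metabolism rose (gsta.1) and 1 fell. The glucuronosyltransferase gene ugt5a2, of a family that conjugates steroids and other compounds, measured 0.35 to 1.39 on 5 treated arrays and -0.41 on treated replicate 2, against 0.83 to 2.60 on controls. It fell by 1.12 ± 0.24 on the log2 scale (adjusted p = 0.0101, and 0.081 without replicate 2). Of 39 genes of heme, iron and oxidative stress defence 1 rose (selenoh) and 2 fell (hmox1a and hp). Of 79 oxidative phosphorylation genes only the cytochrome c gene cycsb fell (-0.99 ± 0.22, adjusted p = 0.0152, and 0.0775 without replicate 2), and of 54 DNA replication and mitosis genes only tk1 rose.

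In the other 21 of the 31 lists no gene passed the threshold with all arrays. These include 67 cytosolic ribosomal proteins (median 0.08), 85 genes of ribosome biogenesis (0.07), 61 translation factors (0.01), 49 proteasome subunits (-0.04), 21 aminoacyl-tRNA synthetases (-0.21), 17 cholesterol synthesis genes (-0.28), 23 fatty acid and triglyceride synthesis genes (-0.15), 27 fatty acid oxidation genes (0.04), 43 genes of glycolysis, gluconeogenesis and glycogen (0.05), 18 apolipoprotein and lipid transfer genes (-0.07) and 12 growth hormone and insulin-like growth factor genes (-0.24). Examples of members that did not pass are the cholesterol synthesis gene ebp (-1.14, adjusted p = 0.279), the apolipoprotein gene apoeb (-1.13, adjusted p = 0.21) and the glucose-6-phosphatase gene g6pc1a.1 (-1.21, adjusted p = 0.14). Simulated log2 changes of 0.5, 1 and 2 in this comparison were recovered for 22.4%, 76.1% and 95.5% of the probes that carried them, so most changes of the smallest size were missed even there. The simulation drew independent noise with the same SD per probe on all arrays and held no outlying array. Its shares therefore do not give the sensitivity with an array such as treated replicate 2.

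Treated replicate 2 carried transcripts of ovary and egg. Its median ratio over 16 zona pellucida genes, which encode the egg coat, was 0.82, against -1.32 on treated replicate 5, -3.14 to -2.47 on the other 4 treated arrays and -3.41 to -2.13 on the controls. For 13 of the 16 genes it was the highest of the 14 arrays, against 1685 of 9164 named genes. For 8 of the 16 treated replicate 5 was the highest of the rest, against 1246 of 9164 named genes. Over 33 ovary and oocyte markers the median was 0.73 on treated replicate 2, -1.31 to -0.93 on the other treated arrays and -1.84 to -0.98 on controls, and treated replicate 2 was the highest for 27 of the 33. The egg coat gene zp3 measured 0.80 on treated replicate 2, -2.71 on treated replicate 5 and -6.33 to -5.44 on the other 4 treated arrays, against -6.24 to -4.73 on controls. The mitotic cyclin gene ccnb1 measured 1.24 on treated replicate 2, -2.36 on treated replicate 5 and -5.64 to -4.24 on the others, against -5.40 to -4.40 on controls. The spindle gene aspm (0.00, -2.62 and -7.17 to -5.86, against -7.46 to -6.56 on controls) and the glucocorticoid receptor gene nr3c1 (1.02, -2.09 and -5.44 to -4.91, against -5.64 to -5.02 on controls) had the same order on the probes chosen to represent them. The second probe of aspm measured 0.20 on treated replicate 2, within the range of the other treated arrays, and on the other 2 probes of nr3c1 treated replicate 2 was the lowest treated array (-1.29 and -1.17).

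Those genes were among the 10 for which treated replicate 2 stood farthest above the median of the other 5 treated arrays, with asb5a first (7.83 above), then serinc2 (7.37), aspm (6.91), ptp4a2a (6.81), spinb (6.32), ccdc191 (6.29), zp3 (6.25), tbxta (6.21), ccnb1 and nr3c1 (6.13 each). The second probes of serinc2, aspm, ptp4a2a and spinb did not share this height, with treated replicate 2 at -0.19, -0.12, -0.59 and 0.05 from the median of the others. The genes asb5a, ccdc191, zp3, tbxta and ccnb1 have 1 probe each. Of the 10 genes farthest below, hp led (-3.35), followed by the lactate dehydrogenase gene ldhbb (-2.78), the mitochondrial acyl-CoA dehydrogenase gene acad11 (-2.66) and serpina7 (-2.61); pdk2b, ccl27a, tnfrsf1a, pnp5a, fahd2a and c6ast3 followed with -2.41 to -2.01. Ratios of DNA replication and mitosis genes had a median of 0.25 on treated replicate 2, against -1.26 to -0.67 on the other treated arrays and -1.55 to -0.88 on controls. No egg coat gene or ovary marker passed the threshold with all arrays, and 1 ovary marker, sycp3, rose without replicate 2. The 2 lists had median differences of 0.71 and 0.39 with all arrays, which were 0.13 and 0.05 without replicate 2 and -0.16 and -0.03 without replicates 2 and 5. The part that ovary transcripts play in the rises of vtg7, the 16 unnamed probes, selenoh, tk1 and ccdc71, and in the falls of plasma protein genes, was not tested beyond leaving out these arrays.

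Markers of other tissues were read in the same way. Over 17 exocrine pancreas genes the array median was -0.53 to 1.26 in treated fish and -1.13 to 0.74 in controls, with treated replicate 5 the highest. Over 15 intestine markers it was 0.15 on treated replicate 5 and -1.90 to -0.78 on the other treated arrays, against -1.55 to -0.76 on controls. Muscle genes (27) stayed between -3.93 and -2.72, and 22 erythrocyte and 22 macrophage, neutrophil and lymphocyte markers had no call. Over 18 testis markers, none of them called, the array median was 0.79 and 0.76 on treated replicates 1 and 4 and -0.43 to -0.20 on the other treated arrays, against -0.60 to 0.00 on controls. The meiotic gene sycp3 was also highest on treated replicates 4 and 1 (2.58 and 2.27), and the part of these markers in its rise was not tested. The same sycp3 probe also rose with 0.5 µg/L at 96 h, by 0.87 (adjusted p = 0.00865). With 5 µg/L at 24 h it rose by 1.08 (adjusted p = 0.000157). No testis marker was called in those 2 comparisons, where the list medians were 0.04 and -0.08.

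**Figure D4:**
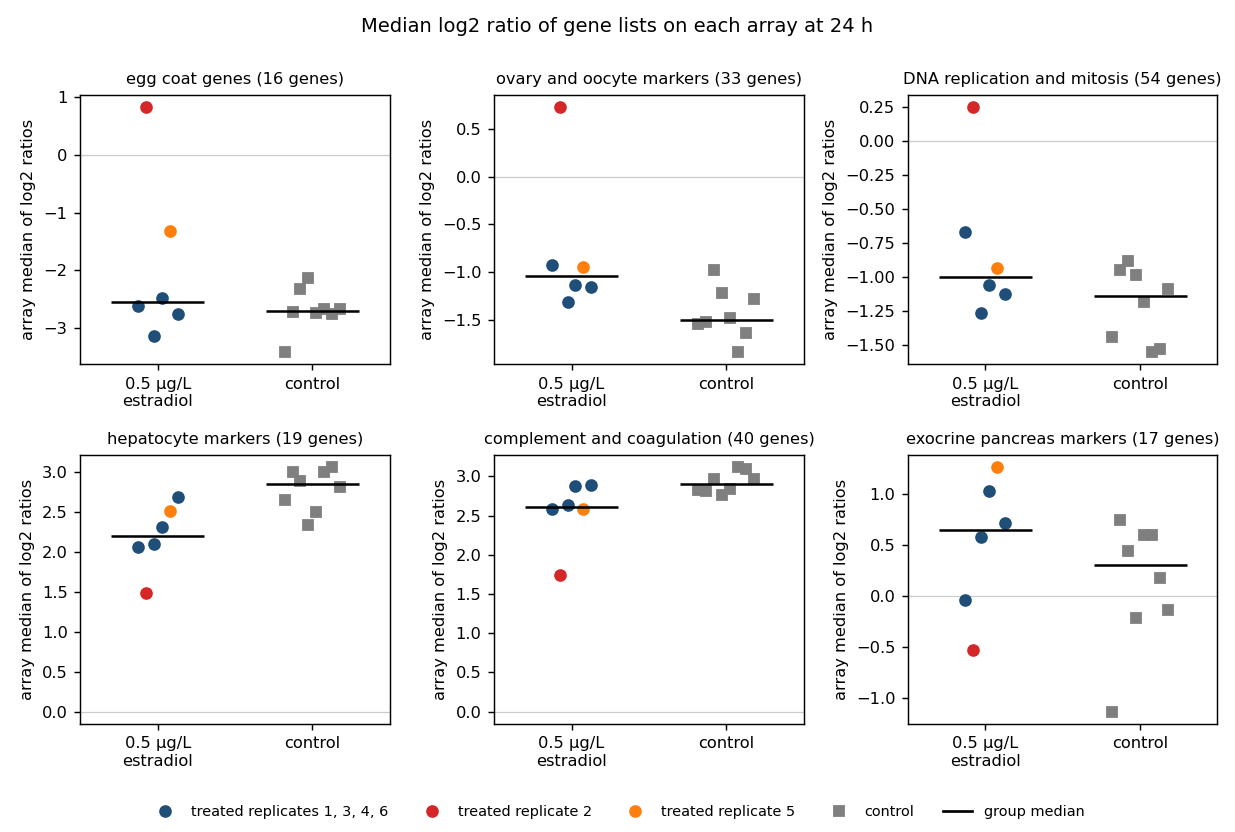
Median log2 ratio over the liver pool of 6 gene lists on each 24 h array; each point is 1 array, treated arrays on the left of each panel, and the line is the median of the group. Treated replicate 2 (red) stands above all other arrays for egg coat genes, ovary markers and DNA replication genes and below all for hepatocyte and complement genes, and treated replicate 5 (orange) is second for egg coat genes at -1.32.

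The same dose at 96 h had a broader response. There 440 probes rose (2.0%) and 276 fell (1.25%), and the 2 times share no arrays. Of the 46 probes that rose at 24 h, 34 also rose at 96 h, 7.73% of the 96 h rises and 73.9% of the 24 h rises. Those 46 include 15 probes of vtg3 and the 16 unnamed probes, all 16 of which also rose at 96 h, so the shares do not count separate genes. Of the 65 that fell, 8 also fell at 96 h, 2.9% of the 96 h falls and 12.3% of the 24 h falls. The median difference of the 46 probes was 7.13 at 96 h and 3.08 at 24 h, and that of the 65 probes was -0.20 at 96 h and -1.01 at 24 h; the 24 h values chose these probes. Tested directly, the effect at 96 h differed from that at 24 h for 167 probes (0.758%), 154 of them more positive (0.699%) and 13 more negative (0.059%) at 96 h. The vtg3 difference grew by at least 3.41 (adjusted p = 1.93e-07), a bound because its spot was saturated on all 6 arrays at 96 h. That of vtg7 grew by 4.68 ± 0.73, of nots by 4.16 ± 0.38, of pax9 by 3.12 ± 0.54, of pycard by 3.11 ± 0.41, of rtn1 by 2.44 ± 0.46 and of esr1 by 2.23 ± 0.45 (adjusted p = 0.00359). At 24 h the spots of esr1, pycard and pax9 were above background on 1, 3 and 4 of the 6 treated arrays, so these differences are set against values partly at background.

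Some genes called at 24 h were near their controls at 96 h, and few of these differences between times passed. The effect on ypel3 was -0.49 at 96 h and 0.92 at 24 h, a difference of -1.41 ± 0.30 (adjusted p = 0.00593), and that on rab1ba was 0.17 at 96 h and -0.84 at 24 h, a difference of 1.02 ± 0.25 (adjusted p = 0.0313). For papss2b the effects were 0.15 at 96 h and -1.07 at 24 h, with an adjusted p of 0.0498. For btg2 (0.30 at 96 h and 1.36 at 24 h), egln1b (0.05 and 0.89), calr3b (-0.17 and -1.71) and manf (0.13 and -1.19) the difference between times did not pass, with adjusted p-values of 0.323, 0.158, 0.224 and 0.138. The untreated fish themselves differed between the times: at 96 h they measured lower than at 24 h by 1.70 for calr3b (adjusted p = 0.00796), by 1.09 for btg2 (0.0312), by 0.92 for papss2b (0.0162) and by 0.76 for rab1ba (0.0112), on the log2 scale. Of the 96 folding and secretion genes, 9 had a more positive effect at 96 h and none a more negative one, against 0.808% and 0.0655% of named genes, and the median effect was 0.19 at 96 h. The untreated fish differed for this list too, with a median of -0.42 for 96 h minus 24 h. Of the 96 genes, 6 were lower in untreated fish at 96 h and none higher, against 101 and 32 of 9164 named genes. The difference in effect between times includes this shift of the controls.

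Set against 5 µg/L at 24 h, the lowest dose gave lower ratios of vtg3 and vtg7, the 2 of 6 vitellogenins that differed between the doses, and lower ratios of many folding genes. The 5 µg/L group differed from the 0.5 µg/L group for 829 probes (3.76%), 608 higher (2.76%) and 221 lower (1.0%) at 5 µg/L; for the effects of the 2 doses, which share the 24 h controls, values are given side by side. At 5 and 0.5 µg/L, vtg3 rose by 7.04 ± 0.29 and 4.39 ± 0.29, with 4 and 0 of 6 treated spots saturated. The differences between 5 and 0.5 µg/L were at least 2.64 for vtg3 (adjusted p = 2.67e-08), 3.55 for vtg7, 3.07 for esr1 (adjusted p = 6.79e-09), 2.90 for nots, 2.60 for rtn1, 2.35 for pax9, 1.76 for pycard and 1.44 for nupr1b, all past the threshold, with the same limit for esr1, pycard and pax9 at 0.5 µg/L. For esr1 the ratio at 0.5 µg/L overlapped the controls while the effect at 5 µg/L was 3.27 ± 0.32.

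Other genes were lower at 5 than at 0.5 µg/L. The differences were -1.49 ± 0.31 for btg2 (adjusted p = 0.00118), -0.95 ± 0.20 for egln1b, -0.95 ± 0.22 for ypel3 and -1.31 ± 0.22 for zfp36l1b, and the effects of 5 µg/L on btg2, egln1b and ypel3 were -0.14, -0.06 and -0.03, none past the threshold. Of the 96 folding and secretion genes, 34 were higher at 5 than at 0.5 µg/L and none lower, against 348 and 119 of 9164 named genes (3.8% and 1.3%), with a median of 0.57. These included manf (1.23 ± 0.30, adjusted p = 0.00908), hspa5 (1.43 ± 0.43, adjusted p = 0.0491) and hyou1 (1.25 ± 0.38, adjusted p = 0.0484), whose effects against controls were 0.04, 0.00 and -0.01 at 5 µg/L. Ribosome biogenesis genes were higher at 5 µg/L for 31 of 85, aminoacyl-tRNA synthetases for 10 of 21, translation factors for 16 of 61 and proteasome subunits for 12 of 49. The falls of ugt5a2 (-1.88 at 5 and -1.12 at 0.5 µg/L) and hp (-2.24 and -1.31) did not differ between doses past the threshold with all arrays (adjusted p = 0.0999 and 0.155), and did without treated replicate 2 (adjusted p = 0.0128 and 0.000229).

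**Figure D5:**
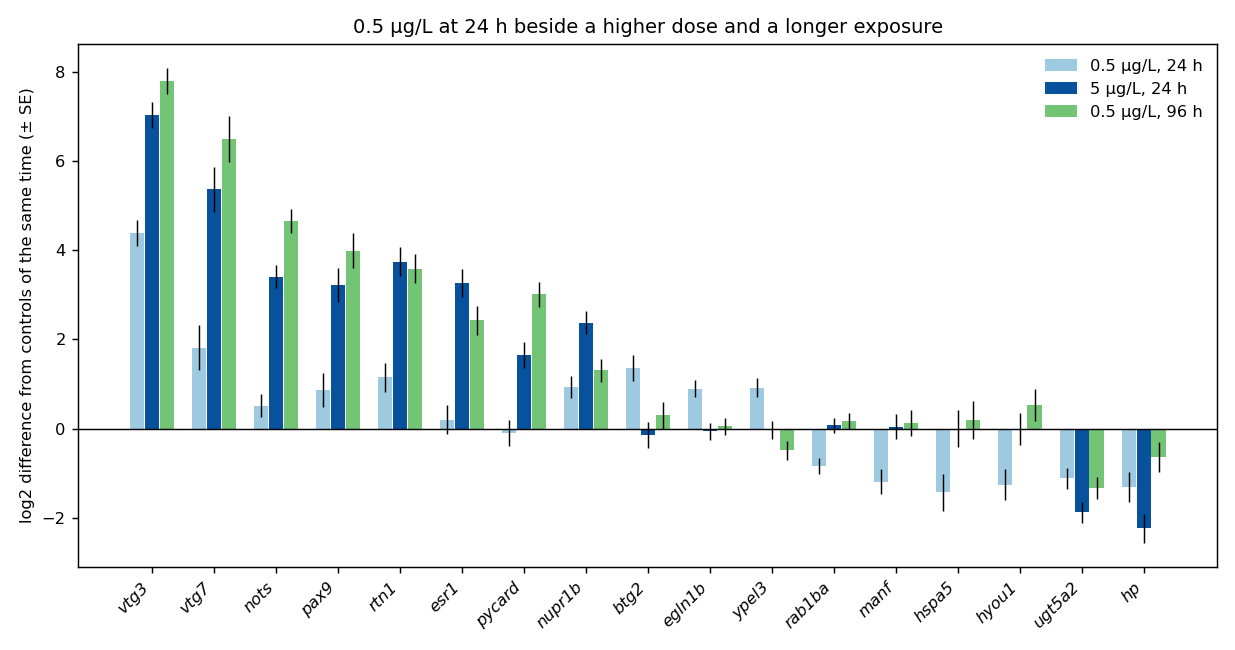
Difference of log2 ratios from the untreated fish of the same time for 17 genes, as bars with the SE of the fit, at 0.5 µg/L and 24 h (light blue), 5 µg/L and 24 h (dark blue) and 0.5 µg/L and 96 h (green). The vitellogenin, nots, pax9, rtn1 and esr1 bars are tallest at the higher dose or later time, whereas btg2, egln1b, ypel3, rab1ba, manf, hspa5 and hyou1 depart from 0 most at 0.5 µg/L and 24 h; the vtg3 bars at 96 h and at 5 µg/L include saturated spots.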

How the data were processed

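The authors deposited a value table of log2 ratios of the fish sample (Cy5) over the liver pool (Cy3) for 23232 probes and, for the 35 treated arrays, scanner files that give spot and background intensity and the percent of pixels above background per the file headers. For those arrays both sources held identical ratios. For the normalization behind the log2 ratios, the image software and the genome build, nothing is given in the sources used here, and for the 15 control arrays only the ratios were used. The dye orientation was the same on every array.

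Each array was centred on its median. The means of 8 groups over 50 arrays were estimated by lmFit and eBayes of limma 3.58.1 under R 4.3.3, for the 22046 probes with at least 3 values in each group, with Benjamini-Hochberg adjustment over all of them and a threshold of 0.05. Missing values were left out of the fit of that probe (pgp lacks treated replicate 6). Files were read with data.table (version 1.17.8). The annotation gave 1 symbol for 11724 probes and none for 11508; 6997 of 10121 symbols were updated through synonyms, and a gene is represented by its probe with the highest mean Cy3 intensity. A spot counts as above background where over 50 percent of its pixels are.

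The genes named are the up to 12 largest rises and falls, with and without treated replicate 2, every vitellogenin and estrogen receptor, in each list described the members of lowest p (at most 3), and 10 genes each way for treated replicate 2. Named outside that rule, after their values or earlier results were seen, are hspa5, hyou1, selenos, tmed2 and the estrogen-responsive genes of the later time and higher dose. The comparison, its members and the 31 lists were chosen with earlier results of these data known, and list members that a symbol pattern had caught by name only were removed by function. The fit was tested on simulated data: of 141 calls, 12 were false and 0 had the wrong direction among 22046 probes. No 2 of the 14 arrays correlated above 0.923, so none was taken as a repeat of another. Precision is limited by the number of arrays.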

Additional observations from a re-analysis of the deposited data

Results flagged for a closer look

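On single arrays, 24 of 270 groups of values held 1 array far from the rest of its group. Chance flags about 1 in 20 groups, but the naming rule took 10 genes each way for the distance of treated replicate 2. The 24 can therefore not be set against that rate. Treated replicate 2 accounts for 9 of the 24: ccl27a (-1.99), imp3 (1.32), ldhbb (0.52), mid1ip1l (0.37), mki67 (0.23), rbm4.3 (0.15), selenoh (0.75), serpina7 (0.19) and tcea1 (0.55), as log2 ratios. Of these, ccl27a, ldhbb and serpina7 were among the genes taken for that distance. Other treated arrays were replicate 1 for ebp (-0.72), replicate 4 for ndufa9a (-0.18) and replicate 5 for elf3 (0.96). Control replicate 1 stood apart for c6ast3 (-1.35), ccdc71 (-1.46), ddx56 (0.79), elf3 (-2.50), nabp1a (0.90), papss2b (2.05) and rtn1 (-2.40), control replicate 3 for rpl3 (1.58), and control replicate 4 for g6pc1a.1 (2.38), mid1ip1l (-2.92), mki67 (-1.03) and spinb (-2.01).

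Over all 9164 named genes, the effect of 0.5 µg/L was more positive at 96 than at 24 h for 74 and more negative for 6 in the test of that difference. Among the 135 genes singled out for naming, some of them for their response at 96 h, the effect differed for 16. It was more positive at 96 h for vtg7 (4.68), nots (4.16), vtg3 (3.41), pax9 (3.12), pycard (3.11), rtn1 (2.44), esr1 (2.23), tcima (1.63), abce1 (1.27), papss2b (1.22), eif4g1a (1.19), wars1 (1.18), eif4a1a (1.13) and rab1ba (1.02), and more negative for ypel3 (-1.41) and zfp36l1b (-1.12). For tcima the untreated fish themselves differed by -1.7 between 96 and 24 h (adjusted p = 5.49e-05 in limma). The second tcima probe had a difference in effect of 0.22 (adjusted p = 0.854).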

How the results depend on the processing

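Of the 28 called genes that the naming rule singled out, for which the alternatives were run gene by gene, vtg3 kept its call in every alternative run (difference 4.02 to 4.59), 5 kept it in all 14 fits that left out 1 array, and none changed direction. Over those 14 fits the number of calls ran from 63 to 178, of rises from 38 to 59 and of falls from 25 to 131, and with only the 14 arrays, without treated replicate 2, there were 51 calls, 12 of them falls. With the 14 arrays alone there were 44 calls, 11 of them falls. Without treated replicates 2 and 5, a setting chosen after seeing the data, there were 40 calls, 29 rises and 11 falls, with fewer arrays. With controls of both times pooled 42 probes fell. Among named genes 22 rose and 20 fell in that setting, against 9 and 32 with the 24 h controls. The cause was not tested. The other settings (no centring, quantile normalization, filters on missing or dim values, array weights, robust variances) kept the counts of called probes within 1.5 times, as did the alternatives for the differences between times and between doses, including 778 calls between doses from scanner intensities. Replicate numbers were not taken as pairs, and the titles do not say whether equal numbers share a tank or day. Same-numbered treated and control arrays had correlations of deviations of -0.291 to 0.112, which cannot exclude a pairing. With the replicate number as a block 93 probes were called, 43 up and 50 down. The planned search of promoters for estrogen response elements was not run, since no sequence table was used here. Control arrays have no brightness here, so whether a control ratio lies above background is unknown.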
